A study of Rattus norvegicus with 16 samples.

Results

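The microRNA miR-9a is followed here through the left ventricle of rats whose kidney mass had been reduced. It was chosen by name, as the rat entries rno-miR-9a-5p and rno-miR-9a-3p (miR-9a-5p and miR-9a-3p below), and because miR-9a-5p, a miRNA known for its abundance in nerve tissue, was lower late after surgery. These are 2 of the 366 rat miRNAs listed in at least 1 of the 4 weekly count tables. Only miR-9a-5p was listed in all 4 tables and had enough reads to be fitted, as 1 of 306 miRNAs. The week 7 values led to the choice of miR-9a-5p, so they are given as a description without a test, and the tests use weeks 2, 4 and 5.

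Male Sprague Dawley rats, fed 0.4% Dyets chow, underwent 5/6 nephrectomy by excision (5/6Nx, the removal of most kidney tissue) or a sham operation at 10 weeks of age. Left ventricles were taken 2, 4, 5 or 7 weeks later, which gave 8 groups. Each group had 2 small RNA libraries, each made from a pool of 2 to 3 rats, and the pools are called A and B after the count tables. A p-value here therefore measures the spread between pools, and the spread between single rats was not measured. The tissue is whole ventricle, so a lower level can mean fewer cells of a type or less RNA per cell, and these cannot be told apart.

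miRNAs are short RNAs that lower the stability and translation of messenger RNAs, which they find mainly through their seed, bases 2 to 8. miR-9 is among the abundant miRNAs of vertebrate brain, where it is made in neural progenitors and neurons. Its known targets there include Rest, a repressor of neuronal genes, and Nr2e1 and Hes1, which keep progenitors dividing. Outside the brain, miR-9 is induced by inflammatory signals in human monocytes and neutrophils, and in mouse heart myocardin, a coactivator of muscle genes, has been described as a target.

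Both arms of the miR-9a hairpin are shown with their partners on the opposite DNA strand, because such partners overlap in genome position. Capitals mark the seed, and the sequences are those of RefSeq on GRCr8.
miR-9a-5p: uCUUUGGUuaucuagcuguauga
miR-9a-3p: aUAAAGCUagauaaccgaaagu
miR-9b-3p: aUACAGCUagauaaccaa
miR-9b-5p: uUCGGUUAucuagcuuuau
No other of the 693 mature miRNA names in the RefSeq table had any of these seeds. The next pair of lines gives the reverse complement of each miR-9a arm, with the whole of the miR-9b arm that lies within it in capitals.
miR-9a-5p, reverse complement: ucAUACAGCUAGAUAACCAAaga
miR-9a-3p, reverse complement: acuUUCGGUUAUCUAGCUUUAU
miR-9b-3p filled positions 3 to 20 of the reverse complement of miR-9a-5p, and miR-9b-5p filled positions 4 to 22 of that of miR-9a-3p. The sources used here do not say whether reads were counted by strand. Without strand, reads from miR-9a-5p and miR-9b-3p cannot be told apart where they overlap.

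RefSeq places miR-9a at 3 hairpins, which are shown because reads of a mature arm cannot be traced to any one of them. Capitals mark the mature arms.
Mir9-1, chr2:175974971-175975059, plus strand: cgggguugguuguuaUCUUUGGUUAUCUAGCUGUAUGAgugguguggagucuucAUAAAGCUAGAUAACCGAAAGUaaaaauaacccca
Mir9-2, chr2:15933292-15933378, plus strand: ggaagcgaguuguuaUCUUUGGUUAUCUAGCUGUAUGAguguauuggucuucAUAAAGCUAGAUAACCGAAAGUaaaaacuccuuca
Mir9-3, chr1:142849400-142849489, plus strand: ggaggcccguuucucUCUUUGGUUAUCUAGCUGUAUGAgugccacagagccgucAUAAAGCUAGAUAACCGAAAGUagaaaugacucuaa
Both arms are identical in the 3 hairpins. The loops between them differ and span 16 bases in Mir9-1 and Mir9-3 and 14 bases in Mir9-2. Mir9-1 lies within the noncoding RNA gene LOC100911992, Mir9-2 within Mir9-2hg and Mir9-3 within the noncoding RNA gene Mir9-3hg. The nearest named protein-coding genes that do not overlap the hairpins are Rhbg at 27827 bases from Mir9-1, Mef2c at 61653 bases from Mir9-2 and Uqcrbl1 at 14513 bases from Mir9-3.

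The libraries held 672077 to 3509916 counts on rat miRNAs, and the sham pools of week 7 held the fewest. Levels are given as counts scaled to a library total of 1000000 (CPM) after scaling by the trimmed mean of M values (TMM). The first principal component of the 306 miRNAs carried 36.4% of the variance and set all week 7 libraries, at 8.05 to 8.58, apart from the others, at -6.38 to 0.08. Each week has its own table, so week and table cannot be told apart in any comparison between weeks. The sham pools of week 5 also stood apart from each other. The endothelial markers miR-126a-3p and miR-126a-5p together held 56618 CPM in sham pool A and 16732 CPM in sham pool B. The 5/6Nx pools of that week held 21181 and 23556 CPM. Results that rest on the sham pools of week 5 are given without them where that changes a call.

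miR-9a-5p was a miRNA of middling level in the ventricle. Over the 16 libraries it averaged 184 CPM, rank 109 of 306, next to miR-1843-5p at 189 CPM and miR-338-3p at 182 CPM. Its rank was 131 and 129 in the 5/6Nx pools of week 7 and between 88 and 111 in the other 14 libraries. The spread of miR-9a-5p between pools, a biological coefficient of variation of 0.160, was near the median of 0.149 over all fitted miRNAs.

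At week 2 the 5/6Nx and sham groups differed in miR-9a-5p by less than the spread between pools. It was at 162 and 185 CPM in the 5/6Nx pools (233 and 350 counts), against 174 and 170.4 CPM in the sham pools (328 and 534 counts). The sham pools lay between the 5/6Nx pools. The mean was 173 ± 15.9 CPM in 5/6Nx and 172 ± 2.49 CPM in sham (SD, n = 2 each). The log2 change was 0.01 with a standard error of 0.22 and a 95% interval of -0.45 to 0.48, with adjusted p = 0.968 in edgeR's quasi-likelihood test with Benjamini-Hochberg adjustment. At this week 0.654% of the 306 miRNAs passed the threshold of 0.05, and miR-9a-5p was not among them.

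At week 4 the 5/6Nx pools lay on either side of the sham pools. miR-9a-5p was at 222 and 151 CPM in the 5/6Nx pools (763 and 375 counts), against 209 and 212 CPM in the sham pools (317 and 525 counts). The mean was 186 ± 49.9 CPM in 5/6Nx and 210.4 ± 1.81 CPM in sham (SD, n = 2 each). The log2 change was -0.17 with a standard error of 0.22 and a 95% interval of -0.63 to 0.29 (edgeR adjusted p = 0.893, with 0.654% of miRNAs past the threshold). Without 5/6Nx pool B the change was 0.12, so its sign at week 4 rested on that library.

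At week 5 the spread lay in the sham group. miR-9a-5p was at 182 and 192 CPM in the 5/6Nx pools (517 and 700 counts), against 186 and 298 CPM in the sham pools (547 and 810 counts). Sham pool A fell between the 5/6Nx pools, and sham pool B was the highest of all 16 libraries. The mean was 187 ± 7.28 CPM in 5/6Nx and 242 ± 79.2 CPM in sham (SD, n = 2 each). The log2 change was -0.37 with a standard error of 0.21 and a 95% interval of -0.83 to 0.08 (edgeR adjusted p = 0.546). No miRNA passed at this week in edgeR (0% of 306), while 27 had an unadjusted p under 0.05 and DESeq2 passed 6. The sham pools decided this value: without sham pool A the change was -0.81 (edgeR adjusted p = 0.0182), and without sham pool B it was -0.11. In both cases the lone sham pool was assumed to vary like the other groups.

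Over weeks 2, 4 and 5 together, miR-9a-5p did not pass the test for a difference between 5/6Nx and sham. The mean of the weekly log2 changes was -0.18 with a standard error of 0.12 and a 95% interval of -0.44 to 0.09 (edgeR adjusted p = 0.610). No miRNA passed this comparison in edgeR (0% of 306), while 38 had an unadjusted p under 0.05 and DESeq2 passed 16. An exact two-sided permutation test within weeks, over every arrangement of the pools, gave p = 0.361 for a mean difference of -0.18 in log2 CPM, where 0.00926 is the smallest p the design allows. The surgery effect did not pass a test for a difference between the 3 weeks (edgeR adjusted p = 0.694, with 0.98% of miRNAs past the threshold).

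At week 7 miR-9a-5p was at 93.9 and 90.3 CPM in the 5/6Nx pools (142 and 105 counts), against 211.4 and 211.2 CPM in the sham pools (178 and 127 counts). Both 5/6Nx pools were below both sham pools, and below every library of the earlier weeks. The mean was 92.1 ± 2.58 CPM in 5/6Nx and 211 ± 0.176 CPM in sham (SD, n = 2 each), a log2 change of -1.20 or a level 2.29-fold lower. At this week 27.8% of all miRNAs had both 5/6Nx pools below both sham pools. Since this contrast chose miR-9a-5p, the values stand without a test.

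**Figure D1:**
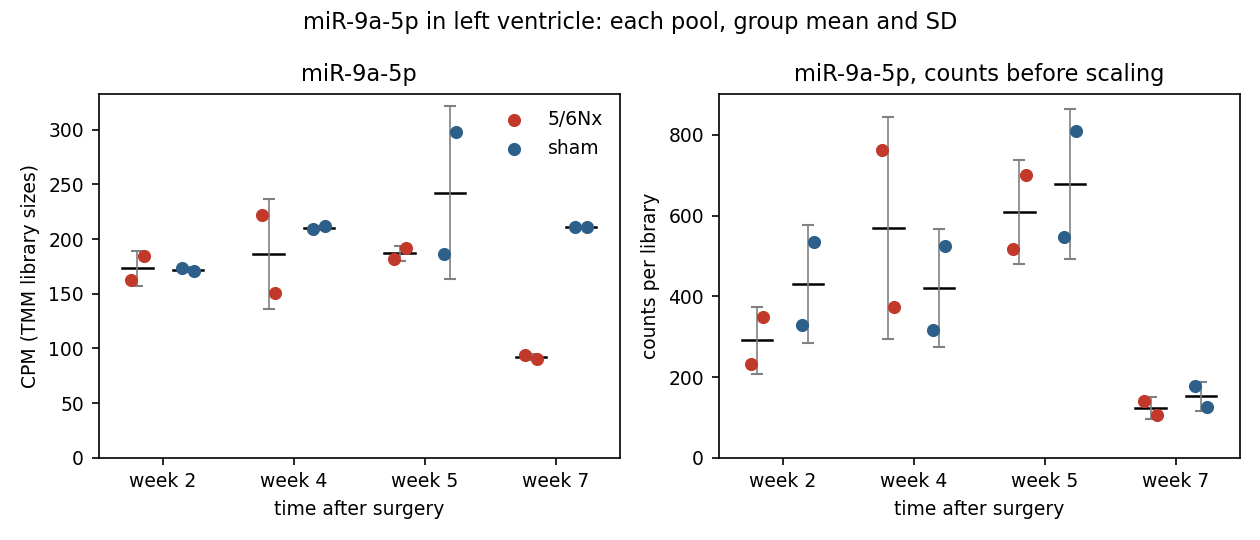
Level of miR-9a-5p in each pool (left, CPM after TMM scaling, points for pools, bar and error bar for group mean and SD, n = 2) and the counts behind it (right), by week and surgery. The week 7 5/6Nx pools sit at 93.9 and 90.3 CPM, below all other libraries, while the counts of all week 7 libraries, at 105 to 178, are lower than those of the earlier weeks.

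Several other measures differed between the week 7 groups, and their part in the value of miR-9a-5p was not tested. Total reads were 4083163 to 4984951 in the 5/6Nx pools and 2214038 to 3255965 in the sham pools. The mapped share was 87.6% to 89.3% in 5/6Nx and 91.3% to 92.7% in sham, and reads per distinct sequence were 20.3 to 21.0 in 5/6Nx and 10.8 to 14.6 in sham. In place of CPM, the summed counts of both pools can be set against the reads mapped. On this scale (RPM, relative to the mapped reads) miR-9a-5p had 30.8 RPM in 5/6Nx (exact Poisson 95% interval 27.1 to 34.9) and 60.5 RPM in sham (53.9 to 67.7), a ratio of 0.509. These intervals cover counting error only. The same ratio was 0.931 at week 2, 1.04 at week 4 and 0.873 at week 5, so the sign at weeks 2 and 4 was opposite to that in CPM. Without TMM factors the week 7 pools held 87.4 and 76.9 CPM in 5/6Nx, against 166 and 189 CPM in sham.

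The summed level of the fibroblast markers miR-199a-3p, miR-199a-5p and miR-214-3p at week 7 was 3123 to 3182 CPM in 5/6Nx and 2310 to 2385 CPM in sham. The 5 cardiomyocyte markers summed to 55281 to 57164 CPM in 5/6Nx and 64148 to 69277 CPM in sham, and the 5 leukocyte markers to 1050 to 1181 CPM in 5/6Nx and 1219 to 1323 CPM in sham. These 3 sums did not overlap between the groups, as for 54.9% of all single miRNAs, and none of their markers was at 0. The sums were led by 1 miRNA each and did not stand for the whole list. miR-133a-3p led the cardiomyocyte sum, with a log2 change of -0.33, while miR-208b-3p, a fetal-type cardiac miRNA, rose by 1.48 (edgeR adjusted p = 0.000536). miR-150-5p led the leukocyte sum, with a log2 change of -0.48, while the other 4 leukocyte markers had positive changes, of which miR-223-3p, a myeloid miRNA, passed at 1.19 (edgeR adjusted p = 0.00733). miR-199a-3p led the fibroblast sum, at 0.33, and miR-199a-5p was the fibroblast marker that passed, at 0.91 (edgeR adjusted p = 0.00756). The endothelial and smooth muscle sums overlapped, at 38882 to 40022 and 277237 to 347136 CPM in 5/6Nx, against 39202 to 50234 and 295687 to 340759 CPM in sham.

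Between weeks, miR-9a-5p in 5/6Nx hearts averaged 173, 186, 187 and 92.1 CPM at weeks 2, 4, 5 and 7, and in sham hearts 172, 210.4, 242 and 211 CPM. From low to high, the 5/6Nx groups ran week 7, 2, 4 and 5, and of these neighbours only week 7 and week 2 did not overlap. The sham groups ran week 2, 4, 7 and 5, and of these neighbours only week 2 and week 4 did not overlap. The share of all 306 miRNAs that parted in the same way between weeks was not counted. The first principal component set all week 7 libraries apart, and the week 7 values led to the choice of miR-9a-5p. Between weeks 2, 4 and 5 the level did not pass the test in 5/6Nx (edgeR adjusted p = 0.931, with 8.82% of miRNAs past the threshold) or in sham (edgeR adjusted p = 0.252, with 16.3% past it). Without sham week 5 pool A the sham call changed, but the group then held pool B alone, at 298 CPM the highest of all libraries. Nothing is read from that fit.

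**Figure D2:**
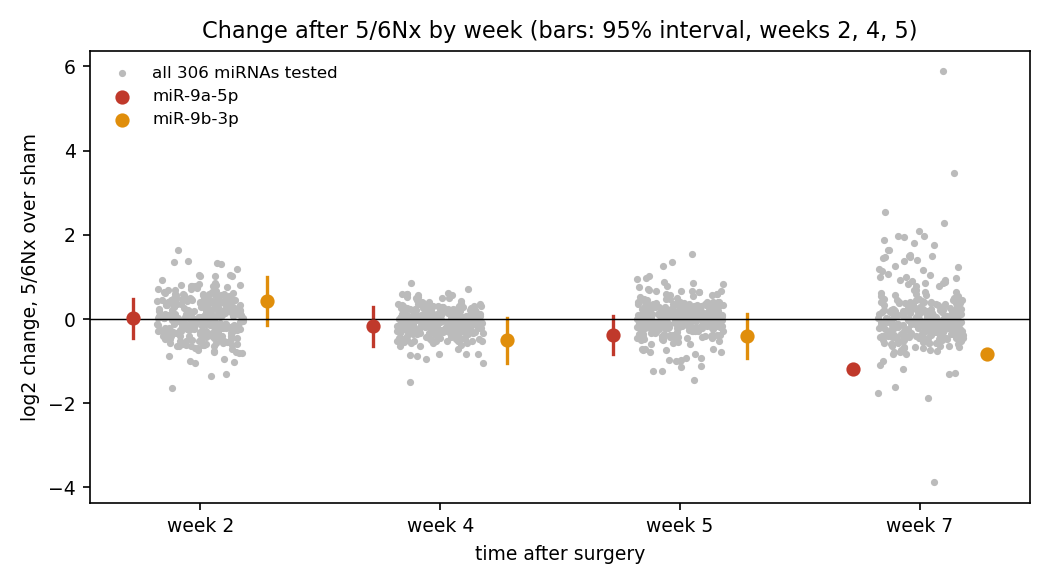
Log2 change in 5/6Nx over sham by week for miR-9a-5p and miR-9b-3p, with 95% intervals at weeks 2, 4 and 5, over all 306 fitted miRNAs in grey. miR-9a-5p is at 0.01, -0.17 and -0.37 with intervals that include 0, and its week 7 point at -1.20 is drawn without an interval because it was used to choose the miRNA.

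The authors' deposited table gives log2 fold changes for miR-9a-5p of -0.03 at week 2, -0.05 at week 4, -0.40 at week 5 and -1.16 at week 7. The p-values in the authors' deposited table were 0.978, 0.934 and 0.495 at weeks 2, 4 and 5, each with an adjusted p of 1.

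miR-9a-3p, the arm opposite miR-9a-5p in the hairpin, was at the edge of detection. It had 0 and 2 counts in the 5/6Nx pools of week 2 against 0 and 4 in sham, 7 and 8 counts in the 5/6Nx pools of week 4 against 1 and 8 in sham, and 3 and 2 counts in the 5/6Nx pools of week 5 against 10 and 3 in sham. At week 5 this was 1.05 and 0.549 CPM in the 5/6Nx pools, against 3.41 and 1.10 CPM in the sham pools. The pools overlapped at weeks 2 and 4, and at week 5 both 5/6Nx pools were below sham, as for 13.4% of all fitted miRNAs, though the nearest pools both held 3 counts. The pools at 0 allow up to 2.09 CPM in the 5/6Nx pool and 1.59 CPM in the sham pool, the level of 3 counts. Over weeks 2, 4 and 5 miR-9a-3p held 48 counts beside 5999 of miR-9a-5p, which is 0.794% of both arms (exact Clopper-Pearson 95% interval 0.586% to 1.05%). No test was made at this depth, and miR-9a-3p at week 7 was not analysed here.

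miR-9b-3p, which lies on the strand opposite miR-9a-5p, varied with it across the libraries and held fewer counts in each. At week 2 it was at 44.5 and 47.5 CPM in the 5/6Nx pools, against 35.5 and 32.9 CPM in the sham pools. Both 5/6Nx pools were above sham, as for 30.4% of all miRNAs at that week. The log2 change was 0.43 with a standard error of 0.26 (edgeR adjusted p = 0.365).

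At week 4 miR-9b-3p was at 58.7 and 34.2 CPM in the 5/6Nx pools, against 63.3 and 69.3 CPM in the sham pools, and at week 5 at 41.1 and 45.5 CPM in 5/6Nx, against 46.0 and 68.9 CPM in sham. Both 5/6Nx pools were below sham in either week, as for 28.4% of all miRNAs at week 4 and 13.4% at week 5. The log2 changes were -0.51 ± 0.25 at week 4 (SE, edgeR adjusted p = 0.601) and -0.40 ± 0.25 at week 5 (SE, edgeR adjusted p = 0.571). At week 7 it was at 28.4 and 26.7 CPM in 5/6Nx, against 46.3 and 53.2 CPM in sham, a log2 change of -0.84 that is a description only, since its reads and those of miR-9a-5p may not be separate.

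In sham hearts miR-9b-3p differed between weeks 2, 4 and 5, at means of 34.2, 66.3 and 57.4 CPM (edgeR adjusted p = 0.0392). This call was lost in 7 of 8 alternative settings, with adjusted p up to 0.120, and in 11 of the 16 fits that each left out 1 library. The test of its surgery effect between weeks gave edgeR adjusted p = 0.285.

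Over the 16 libraries miR-9b-3p held 1629 counts and miR-9a-5p 6551, a ratio of 0.249. By library the ratio ran from 0.193 in sham week 2 pool B to 0.328 in sham week 4 pool B. At week 2 it was 0.275 and 0.257 in the 5/6Nx pools and 0.204 and 0.193 in the sham pools. At week 4 it was 0.265 and 0.227 in the 5/6Nx pools and 0.303 and 0.328 in the sham pools. Within each of the 4 weeks the exact 95% intervals of all pools overlapped, and the ratio was not tested between 5/6Nx and sham.

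**Figure D3:**
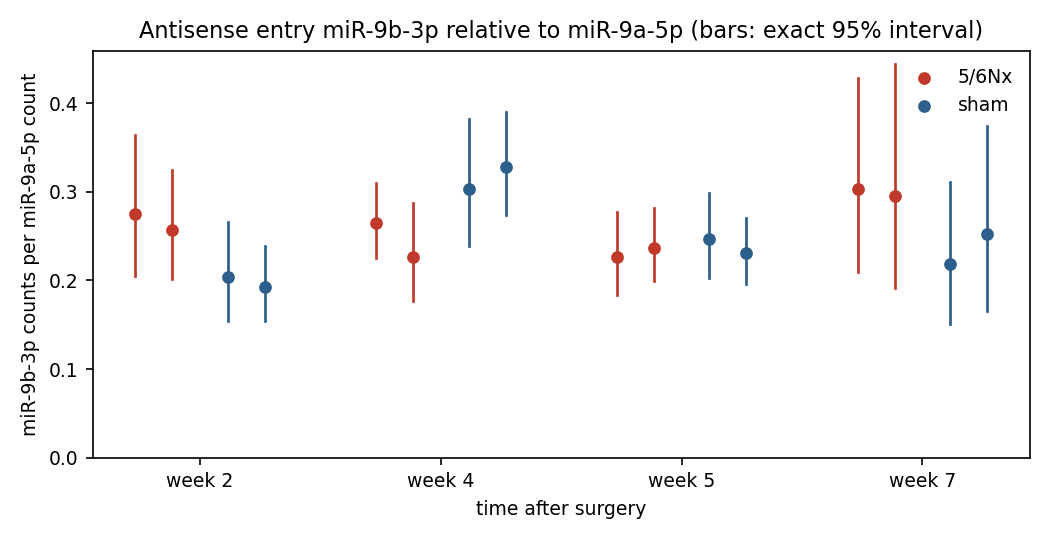
Counts of miR-9b-3p for each count of miR-9a-5p in every library, with exact 95% intervals that cover counting error only. The ratio lies between 0.193 and 0.328 in all 16 libraries, and at 0.303 and 0.295 in the 5/6Nx pools of week 7 beside 0.219 and 0.252 in the sham pools.

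The name neural was set against other miRNAs known from nerve tissue. The list held miR-9b and the neuronal miR-124, miR-128, miR-129, miR-137, miR-138, miR-153, miR-218, miR-383, miR-488 and miR-7 families, miR-338 and miR-219 of myelinating glia, and miR-96, miR-182, miR-183 and miR-375 of sensory and neuroendocrine cells. Apart from miR-9a-5p, 19 entries were found, counting miR-9a-3p, and 12 could be fitted, without miR-9a-3p. miR-124 and miR-137, the miRNAs most used to mark neurons, were not analysed here. Summed CPM over the 2 neuron markers listed at week 7, miR-128-3p and miR-218a-5p, was 104 to 132 in 5/6Nx and 110 to 157 in sham, which overlapped. Which cells of the ventricle held miR-9a-5p was not measured.

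No fitted miRNA of the list passed in edgeR in either direction at weeks 2, 4 or 5, beside 0.654%, 0.654% and 0% of all miRNAs. At an unadjusted p under 0.05 the counts were 2, 1 and 1 of 12, beside 20.9%, 7.19% and 8.82% of all miRNAs. In DESeq2, 54 of the 306 miRNAs had no adjusted p at week 2. DESeq2 passed 2 of the list at week 2 and none at weeks 4 and 5, beside 39, 2 and 6 of the 306 miRNAs. At week 7 none passed in edgeR or DESeq2, beside 4.25% of all miRNAs in edgeR, and the 1 miRNA with an unadjusted p under 0.05, beside 19.9% of all, was miR-9b-3p, whose reads may be those of miR-9a-5p. By sign alone, 4 of 12 were lower in 5/6Nx at week 2, 8 at week 4, 7 at week 5 and 11 at week 7, beside 48.7%, 61.1%, 44.4% and 54.2% of all miRNAs. The median log2 change of the list was 0.26, -0.18, -0.34 and -0.33 at the 4 weeks, beside 0.03, -0.08, 0.05 and -0.04 over all miRNAs. Both 5/6Nx pools were below both sham pools for 4, 3, 4 and 4 of the 12, beside 30.1%, 28.4%, 13.4% and 27.8% of all miRNAs. The week 7 counts belong to the contrast that chose miR-9a-5p, and nothing is read from them.

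Among the 4 most abundant of the list after miR-9b-3p is set aside, miR-338-3p, known from myelinating glia, was at 100.2 and 74.9 CPM in the 5/6Nx pools of week 2, against 135 and 133 CPM in sham. Its log2 changes were -0.62 ± 0.22, -0.08 ± 0.20 and -0.38 ± 0.20 at weeks 2, 4 and 5 (SE, edgeR adjusted p = 0.102, 0.964 and 0.522). miR-128-3p, a neuronal miRNA, was at 82.8 and 94.4 CPM in the 5/6Nx pools of week 2, against 130.4 and 139 CPM in sham. Its log2 changes were -0.60 ± 0.21, -0.09 ± 0.21 and 0.30 ± 0.20 (SE, edgeR adjusted p = 0.102, 0.956 and 0.604). At week 2, where miR-9a-5p was level, both had their 5/6Nx pools below sham, as for 30.1% of all miRNAs. Both passed there in DESeq2 (adjusted p = 0.0368 for miR-338-3p and 0.0416 for miR-128-3p), where 39 of the 306 miRNAs passed.

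miR-182, of sensory and neuroendocrine cells, had log2 changes of 0.19, 0.18 and -0.36 at weeks 2, 4 and 5, and miR-218a-5p, of motor neurons among others, had 0.32, 0.00 and 0.03 (edgeR adjusted p from 0.435 to 0.996). At week 7 the log2 changes were -0.44 for miR-338-3p, -0.06 for miR-128-3p, -0.22 for miR-182 and -0.49 for miR-218a-5p, beside -1.20 for miR-9a-5p. Leaving out sham week 5 pool A or B raised the calls over all miRNAs at weeks 2, 5 and 7, and members of the list were among them. The week 5 sham group then held 1 pool, so no call is read from these fits.

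**Figure D4:**
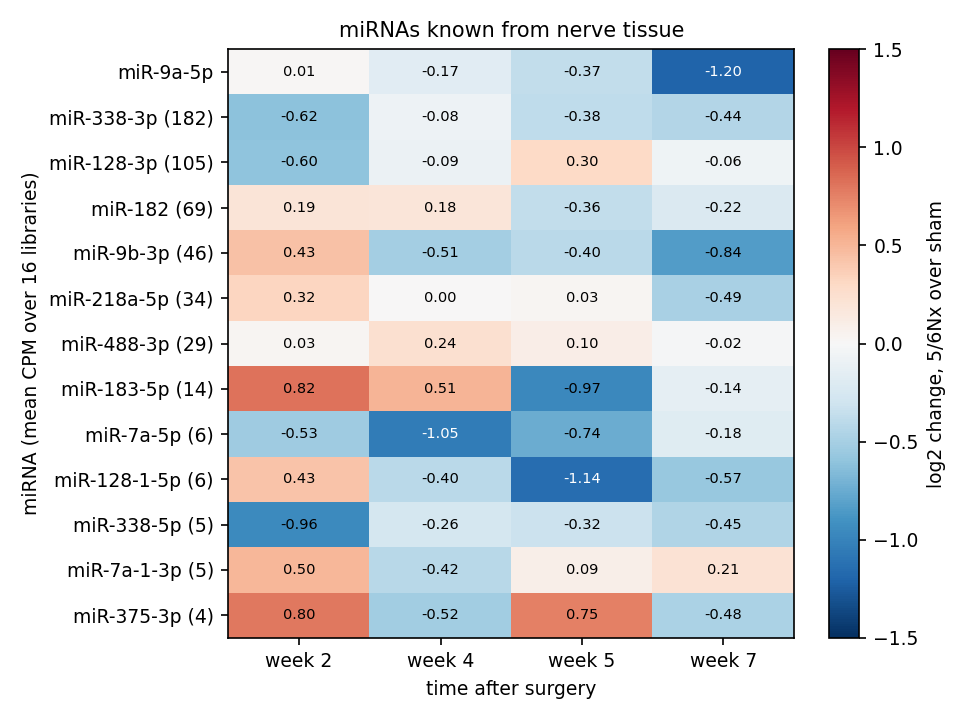
Log2 change in 5/6Nx over sham for miR-9a-5p and the 12 fitted miRNAs of the nerve list, by week. No miRNA of the list passed in edgeR at weeks 2, 4 or 5, and at week 7 only 1 of the 12, miR-7a-1-3p at 0.21, had a positive change.

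The miRNAs whose levels ran most like that of miR-9a-5p were ranked by Pearson's correlation in log2 CPM over the 16 libraries. These points share weeks, libraries and scaling factors, and the values are descriptions. The highest were miR-9b-3p at r = 0.87 (Spearman's rho 0.92), miR-25-3p at 0.87 (0.61), miR-30e-5p at 0.69 (0.62), miR-101a-3p at 0.69 (0.44) and miR-3570 at 0.69 (0.16). The lowest were miR-155-5p at -0.86 (-0.74), miR-132-3p at -0.85 (-0.47) and miR-125b-1-3p at -0.84 (-0.83). The median over the other 305 miRNAs was 0.03.

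After subtraction of each week's mean, the highest were miR-3065-3p and miR-25-3p, both at r = 0.89, miR-9b-3p at 0.87, miR-378a-3p at 0.82 and miR-300-3p at 0.82. The lowest were miR-199a-5p at -0.89, miR-132-3p at -0.89 and miR-155-5p at -0.87. The 12 libraries of weeks 2, 4 and 5 were correlated only without subtraction of week means. There r was 0.83 for miR-9b-3p and 0.66 for miR-25-3p, against 0.87 for each over all 16 libraries on that scale. For miR-3065-3p r was 0.43 against 0.57, and for miR-378a-3p 0.06 against 0.59. Over the same 12 libraries, again without subtraction, r was -0.84 for miR-125b-1-3p, against -0.84 over all 16. For miR-155-5p r was -0.74 against -0.86, for miR-132-3p -0.49 against -0.85, and for miR-199a-5p -0.06 against -0.46. Of the miRNAs named, miR-3065-3p and miR-300-3p were low in level, at means of 4.60 and 8.50 CPM over the 16 libraries. miR-3065-3p also lies opposite miR-338-5p of the nerve list, so the reads of these 2 may not be separate.

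The seeds of 4 of these miRNAs are shown in capitals, because their levels ran with or against miR-9a-5p at week 7 while none shares its seed.
miR-25-3p: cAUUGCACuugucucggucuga
miR-132-3p: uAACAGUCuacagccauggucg
miR-155-5p: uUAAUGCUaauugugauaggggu
miR-199a-5p: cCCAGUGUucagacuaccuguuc
miR-25-3p, of the miR-106b cluster, was at 1309 and 1335 CPM in the 5/6Nx pools of week 7, against 1730 and 1886 CPM in sham. miR-132-3p, an activity-dependent miRNA of neurons that also acts in heart muscle, was at 73.4 and 79.1 CPM in 5/6Nx, against 26.1 and 18.3 CPM in sham. miR-155-5p, of activated immune cells, was at 29.1 and 48.2 CPM in 5/6Nx, against 17.8 and 13.3 CPM in sham. miR-199a-5p, a miRNA of mesenchymal cells, was at 523 and 519 CPM in 5/6Nx, against 291 and 264 CPM in sham. For none of the 4 did the week 7 groups overlap, as for 54.9% of all miRNAs, and the choice by likeness to miR-9a-5p favours such miRNAs.

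**Figure D5:**
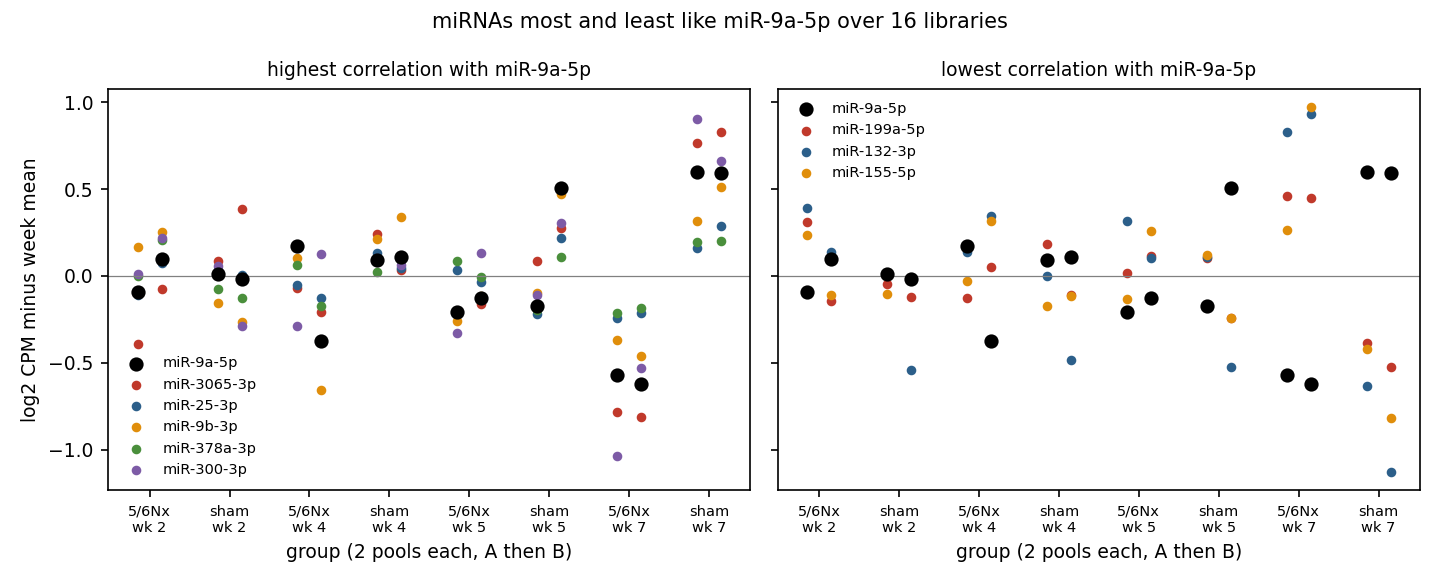
Level of miR-9a-5p (large black points) and of the miRNAs with the highest (left) and lowest (right) correlation with it after subtraction of week means, as log2 CPM minus the week mean, in each library. The groups part most at week 7, where miR-9a-5p is low in 5/6Nx and miR-132-3p, miR-155-5p and miR-199a-5p are high.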

How the data were processed

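Small RNA libraries of 16 pools were made with a TruSeq kit and sequenced on an Illumina HiSeq, per the labels. Trimming with cutadapt, mapping with Bowtie and testing with DESeq are named in the submitters' processing notes, which give no version. Genome build, miRNA annotation, mapping settings and use of strand: not given in the sources used here. The deposited tables, 1 per week, hold read counts per library that the authors did not normalize, per the file headers. They also hold the authors' log2 fold changes and p-values. A further deposited table gives the percent of reads that mapped.

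Rat miRNAs listed in all 4 tables (317) were filtered with filterByExpr at a minimum count of 10, which left 306. The counts were fitted together with edgeR 4.0.16 in R 4.3.3 (TMM, quasi-likelihood F test, 1 mean for each of 8 groups), and p-values were adjusted by Benjamini-Hochberg within each comparison. DESeq2 1.42.0 served as an alternative. It gave no adjusted p to 54 of the 306 miRNAs at week 2 and to 30 at week 7. For the mean of weeks 2, 4 and 5 it gave none to 125. The count columns name pools by letter and the labels number replicates, so columns were assigned to groups only. Libraries held 672077 to 3509916 counts on rat miRNAs, and 105 to 810 on miR-9a-5p.

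The miRNAs named are both miR-9a arms and any miR-9b arm, nerve miRNAs that passed in any week and the 4 most abundant of the others, the 5 highest and 3 lowest by correlation with miR-9a-5p before and after subtraction of week means, and the neighbours of miR-9a-5p in mean CPM. The members and lists were chosen with earlier results of these data known. The script was tested on simulated data. Of 306 fitted miRNAs, 277 had a RefSeq sequence.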

Additional observations from a re-analysis of the deposited data

Results flagged for a closer look

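miR-9b-3p had its surgery groups in opposite order at weeks 2 and 7. Its log2 change in 5/6Nx over sham was 0.43 at week 2, with both 5/6Nx pools above both sham pools, and -0.84 at week 7, with both below. miR-218a-5p did likewise, at 0.32 at week 2 and -0.49 at week 7. At week 2 it was at 25.1 and 29.0 CPM in the 5/6Nx pools, against 20.1 and 23.0 CPM in the sham pools, and at week 7 at 27.1 and 33.5 CPM in 5/6Nx, against 48.7 and 34.9 CPM in sham. Over all miRNAs, 30.4% had both 5/6Nx pools above both sham pools at week 2, and 27.8% had both below at week 7. The share that did both was not counted. The difference between weeks 2 and 7 was not tested for miR-9b-3p or miR-218a-5p. Week 7 is the contrast that chose miR-9a-5p, and the reads of miR-9b-3p may be those of miR-9a-5p.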

How the results depend on the processing

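The week 2 log2 change of miR-9a-5p, near 0, changed sign with DESeq2 size factors (-0.000597), without the filter on low counts (-0.023), with all entries of the tables (-0.069), in DESeq2 (-0.000539), without the week 7 libraries (-0.029) and per mapped read (-0.10), and ran from -0.11 to 0.052 as single libraries were left out. At week 4 it turned to 0.050 per mapped read and ran from -0.44 to 0.12 with single libraries left out. At week 5 it ran from -0.81 to -0.11, with adjusted p from 0.0182, where sham pool A was left out, to 0.797. The mean of the 3 weeks ran from -0.31 to -0.08, and week 7 from -1.21 to -1.07, with -0.97 per mapped read. The adjusted p between weeks ran from 0.551 to 0.988 in 5/6Nx, from 0.00287 to 0.548 in sham and from 0.0663 to 0.981 for the surgery effect. The cause was not tested, and counts per mapped read and the scaling without TMM were chosen after seeing the data.

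Counts of miRNAs past the threshold moved more. At week 2, where 2 passed, 4 did without the filter, 0 with all entries, without week 7 or without TMM, 39 in DESeq2, 5 with week 2 libraries alone and 0 to 56 with single libraries left out. At week 4 (2 passed) 16 did with week 4 libraries alone and 0 to 4 with single libraries left out. At week 5 (0 passed) 2 did without the 5 most abundant miRNAs in the library size or without the filter, 6 in DESeq2 and 0 to 63 with single libraries left out. At week 7 (13 passed) the counts were 21 without the 5 most abundant, 23 in DESeq2, 34 with week 7 libraries alone and 5 to 49 with single libraries left out, where the lowest was without sham pool A of week 7. The highest counts at weeks 2, 5 and 7 all left out sham week 5 pool B, and without sham week 5 pool A they were 53, 13 and 44. Of the nerve list, 2 passed at week 2 in DESeq2, beside the 39 of all miRNAs. Some members of the list also passed at weeks 2, 5 and 7 with single libraries left out. Each of these fits left 1 pool in a group, and none of these calls is read as a result.

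No pairing of samples by pool letter was seen in the counts: differences between pools A and B correlated between surgery groups at -0.181 to 0.099 within weeks. Such correlations cannot show whether the pools were paired by design. With the letter as a replicate block, the log2 changes of miR-9a-5p were 0.01, -0.17, -0.37 and -1.20 at weeks 2, 4, 5 and 7, and no call of miR-9a-5p changed. Depth limits miR-9a-3p most, with 48 counts in 12 libraries.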

Other observations

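Antisense partners like that of miR-9a-5p recurred in the tables: 21 pairs of fitted miRNAs overlapped in genome position by at least 15 bases on opposite strands. The summed count of the partner ran from 0.0383 times that of let-7f-5p (its partner miR-3596d) to 0.988 times that of miR-434-3p (its partner miR-3543). In miR-338-3p and miR-3065-5p, the pair closest in level to miR-9a-5p, the ratio was 0.964 and stayed between 0.930 and 0.987 in all 16 libraries. In let-7d-5p and miR-3596b it was 0.877, with a spread of 1.06-fold between libraries. In miR-9a-5p and miR-9b-3p it was 0.249, with a spread of 1.70-fold.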
